A study of Mus musculus with 6 samples.

Results

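Ddit4, Nr3c1, Fkbp5, Tsc22d3, Sgk1, Klf9, Klf15, Cebpd, Mt1 and Mt2 make up a set of 10 genes that respond to glucocorticoids or to metal ions. They were taken by name, as every probe set whose annotation gives exactly 1 gene symbol from this list, which gave 28 of 45101 probe sets on the array. Each gene was read by 1 to 7 of these sets of short probes. Expression was measured in soleus muscle of female C57BL/6 mice, all of them ovariectomized at 4 months of age. The OVX + E2 group received pellets releasing 0.18 mg of 17β-estradiol (E2) over 60 days, and the OVX group received placebo pellets, with 3 Affymetrix mouse genome arrays in each. No group of mice with ovaries was on the arrays, so each comparison is of hormone replacement with its absence. The sources used here do not say whether the arrays came from separate mice, so p-values measure only the spread among the samples, and this may be technical.

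Glucocorticoids bind the receptor encoded by Nr3c1, which is held ready by heat shock protein 90 and its co-chaperones, enters the nucleus and binds DNA elements built from inverted copies of AGAACA. In skeletal muscle its known targets slow protein synthesis, promote breakdown of muscle protein and amino acids, and include regulators that damp the hormone signal itself. Metallothioneins are small cysteine-rich proteins that bind zinc and copper, and their genes are induced both by metal ions through the factor MTF-1 and by glucocorticoids.

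The deposited values were on a log2 scale in arbitrary units. The array medians lay between 6.92 and 6.93 in OVX + E2 and between 6.90 and 6.92 in OVX. Differences are OVX + E2 minus OVX, so that a value below 0 is lower with E2, and were tested with limma over all probe sets. Soleus is the study's name for the tissue, whereas the sample labels give left ventricle. The 8 heart markers had mean levels between the 29.8th and 84.6th percentile of all probe sets, with Nppa, the atrial natriuretic peptide, at the 37.4th and Tnni3, cardiac troponin I, at the 29.8th. The 12 fast-fibre and 10 slow-fibre markers all had mean levels over the 6 arrays at or above the 98.6th percentile. The replicates numbered 3 stood apart. The mean deviation of the fast-fibre markers from their mean over the arrays was 0.29, −0.19 and −1.29 in OVX + E2 replicates 1, 2 and 3, and 0.14, 0.26 and 0.80 in OVX replicates 1, 2 and 3. The fast-fibre markers did not move alike. Myh4 read 13.35, 12.60 and 7.78 in OVX + E2 and 13.07, 13.23 and 13.90 in OVX. Myh1 read 13.01, 12.73 and 12.64 in OVX + E2 and 12.77, 13.02 and 13.05 in OVX. The difference between the groups also depended on brightness. At mean levels of 6 to 7 its median was 0.024, and it was between −0.16 and −0.12 in each step of 1 between levels 8 and 13.

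None of the 28 probe sets reached an unadjusted p of 0.001 or less, the threshold used for all probe sets, of which 0.213% passed. The smallest adjusted p among them was 0.320 (limma, Benjamini-Hochberg), and the smallest among all probe sets was 0.308. Below an unadjusted p of 0.05, 6 probe sets of Ddit4, Nr3c1, Tsc22d3 and Sgk1 were lower with E2 and 0 were higher. That was 21.4% of the 28, against a background of 9.43% of all probe sets that were lower and 4.35% that were higher. Of the 28, 24 had a difference below 0, against 52.3% of all probe sets, and their median difference was −0.14. The genes are bright, and among probe sets with a mean of 8 or more the shares were close. There 6 of 19 member probe sets were lower at this p, which is 31.6%, against 32.8% of all probe sets of that brightness, and 0 were higher, against 0.509%. Of those 19, 18 had a difference below 0, which is 94.7%, against 90.4% of all probe sets of that brightness. The median difference was there −0.17 for the members and −0.13 for all of that brightness. After cyclic loess, which fits out the dependence on brightness, 3 of the 28 were lower (background 4.02%) and 0 were higher (background 3.57%), and the median difference was −0.039. In bulk muscle, fewer cells of a type and less RNA per cell cannot be told apart, and this holds for every difference given here.

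**Figure D1:**
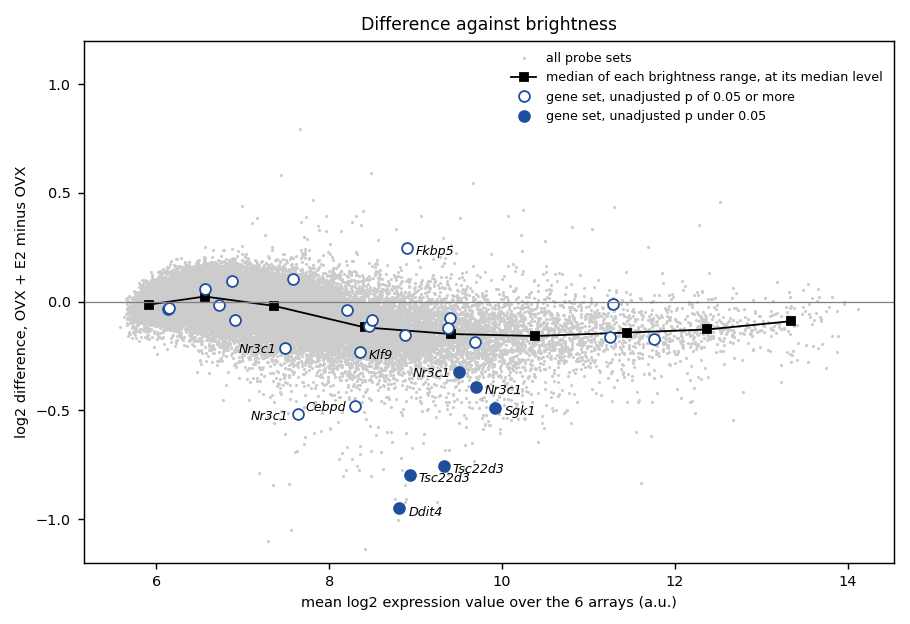
Difference (OVX + E2 minus OVX, log2) of each probe set against its mean level over the 6 arrays (log2, arbitrary units), with the 28 member probe sets marked. Member probe sets with a mean of 8 or more lie mostly below 0, as do most other probe sets of that brightness, and 8 probe sets beyond the vertical axis are not drawn.

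The members varied widely among the arrays. The range over the 6 arrays had a median of 0.57 over the member probe sets and 0.18 over all probe sets, and among those with a mean of 8 or more it was 0.64 for the members and 0.33 for all. OVX replicate 3 was the highest array in 15 of the 19 bright member probe sets, which is 78.9%, against 41.6% of all probe sets of that brightness. OVX + E2 replicate 3 was the lowest array in 12 of the 19, which is 63.2%, against 48.4%. Klf9, Nr3c1 and Tsc22d3 each gave several of the 19. Probe sets of a gene were read on the same arrays, so these shares do not rest on independent readings. The groups did not overlap, with OVX + E2 lower, in 4 of the 28 (background 11.4%), and in 0 with OVX + E2 higher (background 9.76%). Among the 19 bright ones it was 3 that did not overlap, against 33.6% of all probe sets of that brightness.

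**Figure D2:**
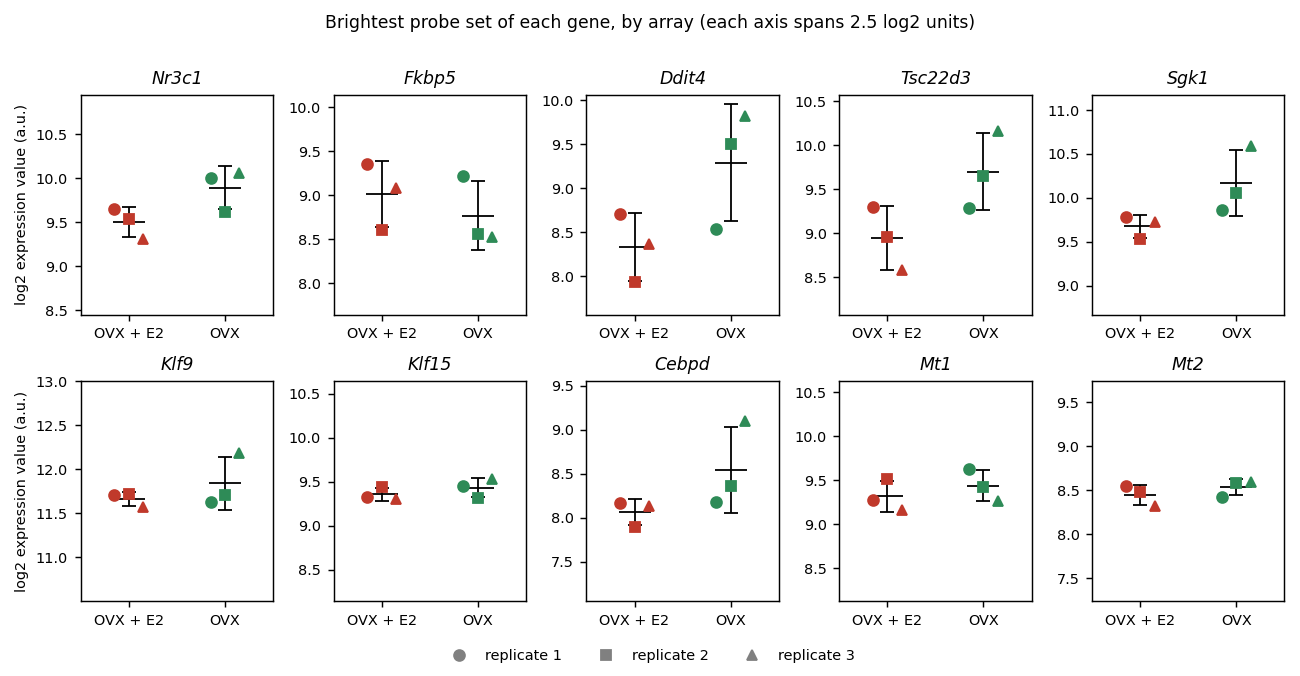
Level of the brightest probe set of each of the 10 genes (log2, arbitrary units) on each array, with OVX + E2 to the left of OVX, bars for the mean and SD of each group, and a symbol for each replicate number. Ddit4, Tsc22d3, Sgk1 and Cebpd have their highest value in OVX replicate 3, as do Nr3c1, Klf9, Klf15 and Mt2. Fkbp5 has its highest in OVX + E2 replicate 1.

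Nr3c1 encodes the glucocorticoid receptor, and its brightest probe set, 1421867_at, read 9.65, 9.54 and 9.31 in OVX + E2 and 10.01, 9.61 and 10.06 in OVX. OVX replicate 2 lay below OVX + E2 replicate 1, so the groups overlapped. The means were 9.50 ± 0.17 in OVX + E2 and 9.89 ± 0.24 in OVX (SD, n = 3 each), a difference of −0.39 (SE 0.13, limma adjusted p = 0.320), under an unadjusted p of 0.05. A second probe set, 1460303_at, read 9.47, 9.36 and 9.20 in OVX + E2 and 9.75, 9.40 and 9.84 in OVX, with a difference of −0.32 (SE 0.12, limma adjusted p = 0.339). It too was under an unadjusted p of 0.05 and showed the same order of arrays, with OVX replicate 2 again below OVX + E2 replicate 1. The other 4 probe sets of Nr3c1 had differences between −0.52 and −0.036, none of them under an unadjusted p of 0.05. The dimmer 1421866_at had the widest range of the 6, with 7.58, 7.71 and 6.84 in OVX + E2 and 7.99, 7.41 and 8.28 in OVX. Probe sets of a gene were read on the same arrays and are not replicates of each other. After cyclic loess the differences of the 2 probe sets were −0.25 and −0.18, and neither was under an unadjusted p of 0.05. Without OVX + E2 replicate 3, OVX replicate 1 or OVX replicate 3, that of 1421867_at was −0.30, −0.34 and −0.31, no longer under an unadjusted p of 0.05. For 1460303_at the same held without OVX + E2 replicate 2 or 3 (−0.33 and −0.25) and without OVX replicate 1 or 3 (−0.28 and −0.23).

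Fkbp5 encodes a co-chaperone that lowers the hormone affinity of the receptor and is itself strongly induced by glucocorticoids. Its brightest probe set, 1416125_at, read 9.36, 8.61 and 9.08 in OVX + E2 and 9.23, 8.56 and 8.53 in OVX. Replicate 1 was the highest array of each group, and the groups overlapped. As deposited, Fkbp5 was the exception among the 10 genes, the other 9 of which had a brightest probe set below 0. Among all probe sets with a mean of 8 or more, 90.4% were below 0. After cyclic loess 6 of the 10 genes were below 0, so Fkbp5 was not the only exception there. The means of Fkbp5 at 1416125_at were 9.02 ± 0.38 in OVX + E2 and 8.77 ± 0.39 in OVX (SD, n = 3 each), a difference of 0.25 (95% interval −0.32 to 0.81, limma adjusted p = 0.651). The dimmer 1448231_at had a difference of 0.10 (limma adjusted p = 0.683), and 1447736_at, near the bottom of the scale at a mean of 6.15, had −0.029. After cyclic loess the difference of 1416125_at was 0.37, not under an unadjusted p of 0.05. It ranged from 0.076 without OVX + E2 replicate 1 to 0.47 without OVX replicate 1.

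Ddit4 encodes REDD1, an inhibitor of the growth kinase complex mTORC1 that glucocorticoids, hypoxia and energy stress induce. Its probe set, 1428306_at, read 8.70, 7.93 and 8.37 in OVX + E2 and 8.54, 9.50 and 9.82 in OVX. OVX replicates 2 and 3 were above every OVX + E2 array, and OVX replicate 1 was below OVX + E2 replicate 1. The range over the arrays, 1.88, was at the 99.9th percentile of all probe sets. The means were 8.34 ± 0.39 in OVX + E2 and 9.29 ± 0.66 in OVX (SD, n = 3 each), a difference of −0.95 or a fold of 0.517 (95% interval on the log2 scale −1.74 to −0.16, limma adjusted p = 0.328), under an unadjusted p of 0.05. An exact two-sided permutation test over the 20 labelings of the arrays gave p = 0.20, where 0.10 is the smallest it can give. After cyclic loess the difference was −0.83, again under an unadjusted p of 0.05. It was no longer so without OVX + E2 replicate 2 or 3, at −0.75 and −0.97, or without OVX replicate 2 or 3, at −0.84 and −0.69, or without both arrays numbered 3, at −0.70.

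The Ddit4 start window is shown because its gene had the largest difference among the brightest probe sets of the 10 genes. Start windows here are RefSeq sequence of GRCm38.p6, 300 bases long, with 250 before the transcript start and 50 after it, and 15 such windows were found for 8 of the 10 genes. They were searched on both strands for the full glucocorticoid element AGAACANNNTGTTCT, its single copy AGAACA, the looser GNACANNNTGTNC that the full element also meets, the metal-response core TGCACNC or TGCGCNC, and the estrogen element GGTCANNNTGACC. The window of Ddit4, at chr10:59951721-59952020 on the minus strand, held a single metal-response core 184 bases before the start, given in capitals. That core was in 25.7% of 32851 windows of all genes. A match describes the letters and is neither a site nor a cause.
Ddit4: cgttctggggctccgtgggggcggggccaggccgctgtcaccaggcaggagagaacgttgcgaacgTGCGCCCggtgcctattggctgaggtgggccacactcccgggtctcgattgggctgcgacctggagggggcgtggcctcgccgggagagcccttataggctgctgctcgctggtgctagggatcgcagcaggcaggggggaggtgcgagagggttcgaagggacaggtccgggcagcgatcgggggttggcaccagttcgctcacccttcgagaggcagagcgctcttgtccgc

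Tsc22d3 encodes GILZ, a leucine zipper protein induced by glucocorticoids that carries part of their anti-inflammatory action. Its brightest probe set, 1420772_a_at, read 9.30, 8.95 and 8.58 in OVX + E2 and 9.29, 9.65 and 10.17 in OVX. OVX + E2 replicate 1 and OVX replicate 1 were nearly equal, and the arrays numbered 3 lay at opposite ends. The means were 8.95 ± 0.36 in OVX + E2 and 9.70 ± 0.44 in OVX (SD, n = 3 each), a difference of −0.75 or a fold of 0.593 (95% interval on the log2 scale −1.34 to −0.17, limma adjusted p = 0.320), under an unadjusted p of 0.05. A second bright probe set, 1425281_a_at, read 8.89, 8.72 and 7.98 in OVX + E2 and 8.92, 9.17 and 9.90 in OVX, with a difference of −0.80 (SE 0.31, limma adjusted p = 0.346), also under it. There the groups did not overlap, by a margin of less than the SD of either group. Not every probe set of the gene read this way. 1425557_x_at, at a mean of 8.20, spanned 0.079 over the 6 arrays with a difference of −0.039, and 1444365_at, at a mean of 6.88, had a difference of 0.095 (limma adjusted p = 0.426). After cyclic loess the differences of the 2 bright probe sets were −0.61 and −0.67, with the first still under an unadjusted p of 0.05 and the other above it. Without both arrays numbered 3 they were −0.34 and −0.23, without OVX + E2 replicate 3 alone they were −0.57 and −0.52, and all of these were above it. Without OVX replicate 3 they were −0.52, under it, and −0.51, above it.

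Sgk1 encodes a kinase related to Akt that glucocorticoids and mineralocorticoids induce. Its probe set, 1416041_at, read 9.78, 9.53 and 9.73 in OVX + E2 and 9.87, 10.05 and 10.59 in OVX. Every OVX + E2 array was below every OVX array, and the OVX + E2 arrays lay close together. The means were 9.68 ± 0.13 in OVX + E2 and 10.17 ± 0.37 in OVX (SD, n = 3 each), a difference of −0.49 or a fold of 0.712 (95% interval on the log2 scale −0.90 to −0.078, limma adjusted p = 0.330), under an unadjusted p of 0.05. The exact two-sided permutation test gave p = 0.10, the smallest it can give. Without both arrays numbered 3 the difference was −0.30, and without OVX replicate 3 alone it was −0.28, both under an unadjusted p of 0.05. After cyclic loess it was −0.34, and without OVX + E2 replicate 2 it was −0.41, both above it.

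Of the 6 start windows of Sgk1, the one at chr10:21993640-21993939 on the plus strand is shown because it held the full glucocorticoid element, given in capitals, 189 bases before the start. That element was in 3 of 32851 windows, or 0.00913%, and in 1 of the 15 windows of these genes. The single copy AGAACA was in 19% of all windows and in 4 of the 15, of which 3 were windows of Sgk1 and 1 of Tsc22d3. The estrogen element was in 0.07% of all windows and in 0 of the 15.
Sgk1: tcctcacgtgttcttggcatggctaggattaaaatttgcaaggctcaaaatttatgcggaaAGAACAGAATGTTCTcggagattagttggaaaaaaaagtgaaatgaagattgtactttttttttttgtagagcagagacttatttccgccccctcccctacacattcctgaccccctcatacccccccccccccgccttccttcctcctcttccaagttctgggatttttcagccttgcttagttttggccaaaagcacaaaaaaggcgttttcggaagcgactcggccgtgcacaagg

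Cebpd, Klf9 and Klf15 encode transcription factors that the receptor induces. Cebpd, a C/EBP factor of the acute phase response, read 8.16, 7.89 and 8.13 in OVX + E2 and 8.17, 8.35 and 9.10 in OVX at 1423233_at. The groups did not overlap, although OVX replicate 1 was nearly level with OVX + E2 replicate 1. The means were 8.06 ± 0.15 in OVX + E2 and 8.54 ± 0.49 in OVX (SD, n = 3 each), a difference of −0.48 (95% interval −1.01 to 0.049, limma adjusted p = 0.389). Without OVX replicate 1 it was −0.67 and under an unadjusted p of 0.05, and without OVX replicate 3 it was −0.20. The second probe set of Cebpd, 1456605_at, had a mean of 6.91 and read 6.84, 6.85 and 6.89 in OVX + E2 and 6.94, 7.005 and 6.90 in OVX, a difference of −0.086 (limma adjusted p = 0.403). After cyclic loess it was −0.11 and under an unadjusted p of 0.05. Klf9, a Krüppel-like factor that also responds to thyroid hormone, had 7 probe sets. Its brightest, 1428289_at, read 11.71, 11.72 and 11.58 in OVX + E2 and 11.63, 11.71 and 12.18 in OVX. OVX replicate 3 alone stood above the others. The difference was −0.17 (SE 0.14, limma adjusted p = 0.578), and those of the other 6 probe sets were between −0.23 and 0.060, none under an unadjusted p of 0.05. Without both arrays numbered 3 the difference of 1428289_at was 0.042. Klf15, a Krüppel-like factor that drives amino acid breakdown in muscle, read 9.32, 9.44 and 9.30 in OVX + E2 and 9.45, 9.31 and 9.53 in OVX. The groups overlapped over a narrow range, with a difference of −0.077 (95% interval −0.23 to 0.078, limma adjusted p = 0.605). After cyclic loess it was 0.065.

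**Figure D3:**
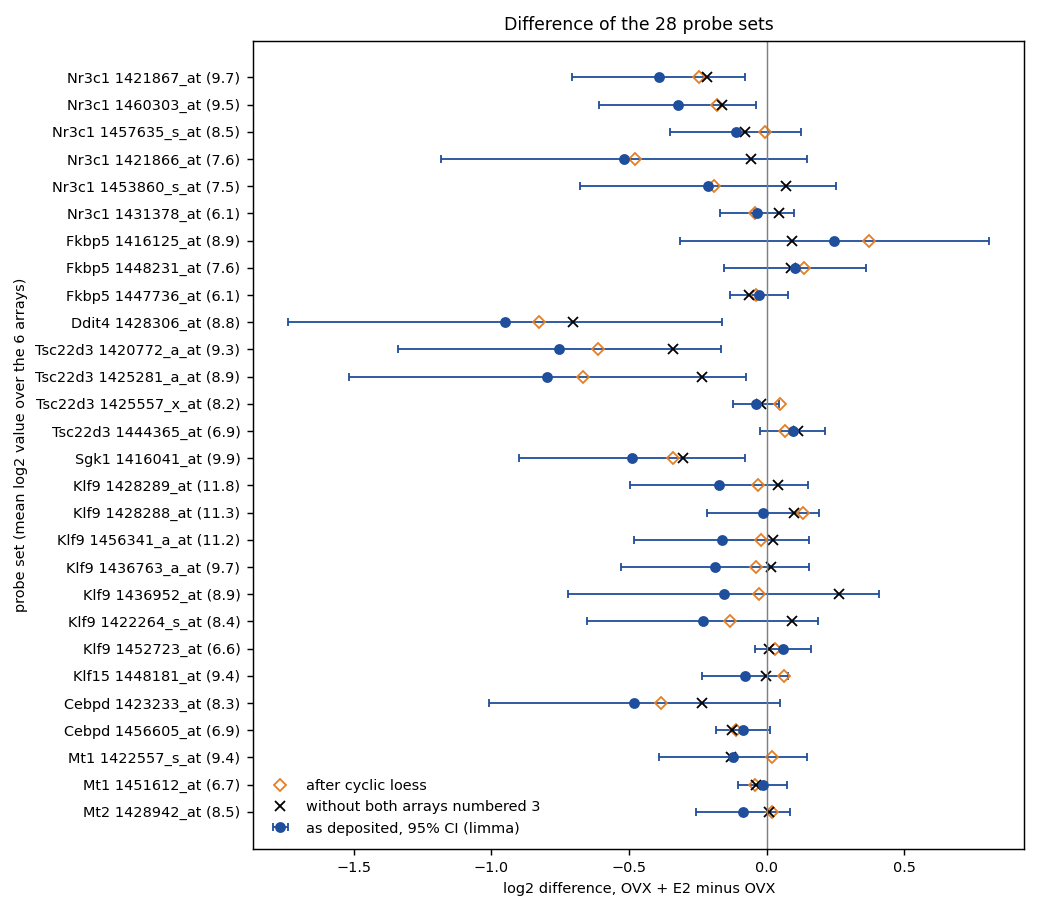
Log2 difference (OVX + E2 minus OVX) of all 28 probe sets, with points and 95% intervals from limma for the values as deposited, diamonds after cyclic loess and crosses without both arrays numbered 3, and the mean level in parentheses. The intervals of Ddit4, Sgk1, 2 probe sets of Tsc22d3 and 2 of Nr3c1 lie below 0, and the other 22 include 0.

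The metallothioneins Mt1 and Mt2, neighbouring genes on chromosome 8, showed small differences. Mt1 read 9.28, 9.51 and 9.16 in OVX + E2 and 9.62, 9.42 and 9.27 in OVX at 1422557_s_at. Mt2 read 8.55, 8.47 and 8.32 in OVX + E2 and 8.43, 8.58 and 8.59 in OVX at 1428942_at. The groups overlapped for both, and OVX replicate 3, the highest array for Ddit4, was the lowest OVX array for Mt1. The difference of Mt1 was −0.12 (95% interval −0.39 to 0.15, limma adjusted p = 0.639), and that of Mt2 was −0.086 (95% interval −0.26 to 0.084, limma adjusted p = 0.598). After cyclic loess they were 0.020 and 0.021. Leaving out each array in turn gave −0.22, without OVX + E2 replicate 2, to −0.029, without OVX replicate 1, for Mt1. For Mt2 it gave −0.14, without OVX replicate 1, to −0.022, without OVX + E2 replicate 3. The dim Mt1 probe set 1451612_at, at a mean of 6.72, had a difference of −0.014. Changes of the size measured for Ddit4 lie outside these intervals for both metallothioneins.

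The start windows of the metallothioneins, at chr8:94178839-94179138 for Mt1 and chr8:94172368-94172667 for Mt2, both on the plus strand, are shown because they were the only windows among the 15 with 3 or more metal-response cores. Mt1 had 3 and Mt2 had 4, and 1.97% of all windows had 3 or more. Capitals mark the cores on either strand and, in Mt1, also the looser glucocorticoid element GGACATGATGTTC, 94 bases before the start. That looser element was in 0.475% of all windows and in 2 of the 15, those of Mt1 and Sgk1 shown here.
Mt1: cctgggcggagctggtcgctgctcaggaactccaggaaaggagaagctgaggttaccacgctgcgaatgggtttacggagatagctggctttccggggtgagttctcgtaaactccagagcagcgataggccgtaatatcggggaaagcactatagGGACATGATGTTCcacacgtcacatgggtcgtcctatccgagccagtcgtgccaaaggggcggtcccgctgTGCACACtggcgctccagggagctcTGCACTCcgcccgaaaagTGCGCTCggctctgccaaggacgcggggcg
Mt2: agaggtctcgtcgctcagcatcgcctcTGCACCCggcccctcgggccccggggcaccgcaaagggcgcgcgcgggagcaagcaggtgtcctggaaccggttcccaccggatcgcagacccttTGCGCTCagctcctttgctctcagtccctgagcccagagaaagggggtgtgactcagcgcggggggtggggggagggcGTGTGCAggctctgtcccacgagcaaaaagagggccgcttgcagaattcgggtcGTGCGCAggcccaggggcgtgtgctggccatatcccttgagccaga

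Array by array, the genes did not all move together. Averaged over the brightest probe sets of the 10 genes, the deviation from each gene's mean was −0.014, −0.24 and −0.24 in OVX + E2 replicates 1, 2 and 3 and 0.026, 0.079 and 0.39 in OVX replicates 1, 2 and 3. Replicate 1 of both groups was close to the overall mean, and OVX replicate 3 was far above it. OVX + E2 replicate 3 minus OVX replicate 3 was −1.58 for Tsc22d3, −1.45 for Ddit4, −0.97 for Cebpd, −0.86 for Sgk1, −0.75 for Nr3c1 and −0.61 for Klf9. It was −0.28 for Mt2, −0.23 for Klf15, −0.11 for Mt1 and 0.55 for Fkbp5. Over the 6 arrays, Pearson's r with Ddit4 was 0.93 for Sgk1, 0.89 for Cebpd, 0.89 for Tsc22d3, 0.72 for Klf9, 0.71 for Mt2 and 0.53 for Nr3c1. It was 0.21 for Klf15, −0.25 for Mt1 and −0.43 for Fkbp5. These values describe 6 arrays that share the groups and the contrast of the arrays numbered 3. Without both arrays numbered 3, 2 of the 28 probe sets, of Sgk1 and the dim 1456605_at of Cebpd, were lower at an unadjusted limma p under 0.05 (background 7.54%) and 0 were higher (background 2.1%). With the fast-fibre deviation added to the model, 0 of the 28 were lower at this p (background 4.06%), and the difference was −0.69 for Ddit4, −0.36 for Sgk1, −0.31 and −0.22 for Tsc22d3 at 1420772_a_at and 1425281_a_at, and −0.21 and −0.17 for Nr3c1 at 1421867_at and 1460303_at. The part of fibre type and of the arrays numbered 3 in the differences was not tested.

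**Figure D4:**
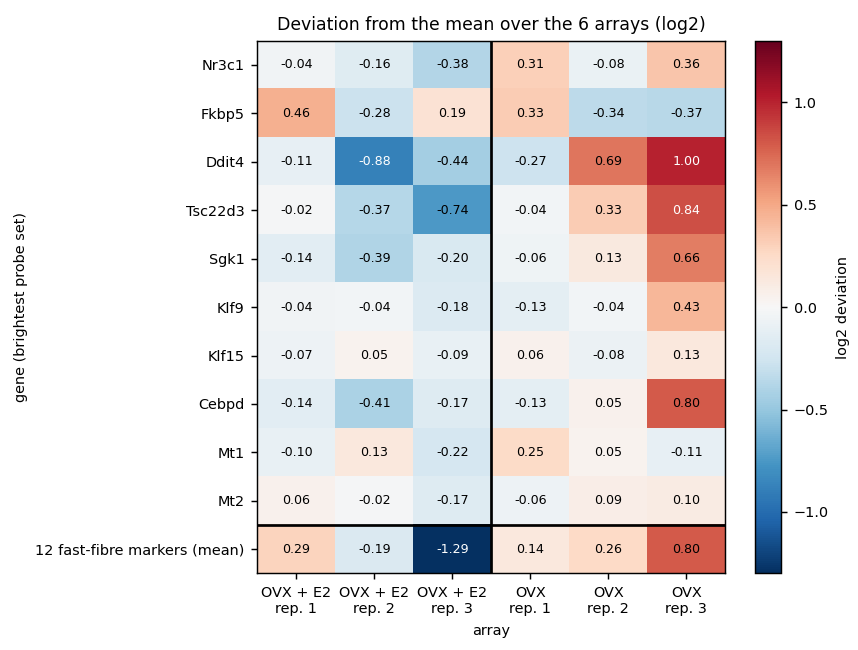
Deviation of each array (columns, OVX + E2 left of OVX) from the mean over the 6 arrays, in log2, for the brightest probe set of each of the 10 genes and, in the bottom row, the mean of 12 fast-fibre markers. Ddit4, Tsc22d3, Cebpd and Sgk1 are highest in OVX replicate 3, as are Nr3c1, Klf9, Klf15 and Mt2. The fast-fibre markers are highest there too, and Fkbp5 is lowest.

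The other genes of the pathway were read at the brightest probe set of each gene. In this count 4 of the 10 members were lower at an unadjusted limma p under 0.05 (background 13.3% of 18194 genes) and 0 were higher (background 4.62%). After cyclic loess 2 were lower (background 3.3%) and 0 higher (background 4.5%), and without both arrays numbered 3, 1 was (background 10.8%). Of 12 measured genes of the receptor's chaperones, coactivators and hormone metabolism, 11 had a difference below 0, 4 were lower and 0 higher at this p, which holds for the counts of all lists here, with a median of −0.10. The 4 were the coactivators Ncoa2 (−0.12) and Ncoa1 (−0.23), the chromatin remodelling ATPase Smarca4 (−0.15) and the co-chaperone Fkbp4 (−0.28), with adjusted p-values between 0.308 and 0.344. After cyclic loess 0 of the 12 were lower, and without both arrays numbered 3, 5 were. Fkbp4 was not among these 5, and Hsp90aa1, which was above 0 as deposited (0.025), was. The lists mix bright and dim genes. Among all probe sets with a mean of 8 or more, 90.4% were below 0 as deposited, with a median of −0.13. At that brightness 32.8% were lower at an unadjusted limma p under 0.05. Counts of the lists are to be read against these shares as well as those of all genes.

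Of 37 other known glucocorticoid targets, 31 had a difference below 0, 8 were lower and 0 higher, with a median of −0.13, and after cyclic loess 3 were lower and 1 higher, with a median of −0.026. Without both arrays numbered 3, 9 of the 37 were lower (background 10.8%), and these were not all the same genes. Cdc42ep3, Zbtb16, Cebpb, Per1 and Glul were lower in both fits, while Bcl6, Foxo1 and Usp2 were lower only as deposited. Foxo3, Tgm2, Pdk4 (−0.24) and Angptl4 (−0.37) were lower only without these arrays. As deposited, Pdk4 (0.050) and Angptl4 (0.019) were above 0. Among all probe sets with a mean of 8 or more, 90.4% were below 0 and 32.8% lower as deposited, with a median of −0.13. Cdc42ep3, an effector of the small GTPase Cdc42, read 8.61, 8.32 and 8.42 in OVX + E2 and 8.79, 8.76 and 8.81 in OVX. The groups did not overlap, with a difference of −0.34 (SE 0.073, limma adjusted p = 0.308) as deposited and −0.22 after cyclic loess, under an unadjusted p of 0.05 in both. Zbtb16, the zinc finger factor PLZF, read 9.99, 10.07 and 9.68 in OVX + E2 and 10.16, 10.44 and 10.55 in OVX. It too had no overlap, with a difference of −0.47 (SE 0.13, limma adjusted p = 0.308) as deposited and −0.32 after cyclic loess, under an unadjusted p of 0.05 in both. The C/EBP factor Cebpb (−0.17) and the clock gene Per1 (−0.24) were the other 2 with the smallest p, at −0.021 and −0.13 after cyclic loess.

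Paralogues of the members, relatives that share their families, had 20 of 24 genes below 0, 6 lower and 0 higher, with a median of −0.052, and 0 lower and 2 higher, Klf3 (0.20) and Klf12 (0.20), after cyclic loess. Those with the smallest p were Cebpb, the C/EBP factor Cebpg (−0.19), the GILZ relative Tsc22d1 (−0.19) and Fkbp4. Metal transport and handling genes had 23 of 32 below 0, 7 lower and 0 higher, with a median of −0.037, and 2 lower and 1 higher after cyclic loess. The zinc transporters Slc39a10 (−0.16), Slc39a7 (−0.15) and Slc39a1 (−0.13) and Ccs, the copper chaperone of superoxide dismutase (−0.13), led that list. In the fit without both arrays numbered 3, 5 of the 24 paralogues and 5 of the 32 metal genes were lower. Of the named metal genes, Slc39a7 and Ccs were among these, and Slc39a10 and Slc39a1 were not. Klf3 and Klf12 were named after their values were seen.

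Downstream of Klf15, all 9 measured genes, mainly of amino acid breakdown and glucose uptake, had a difference below 0, with a median of −0.15. Of these 2 were lower and 0 higher. Among all probe sets with a mean of 8 or more, 90.4% were below 0. After cyclic loess 7 of the 9 were below 0, with a median of −0.049, and 0 were lower. Bckdhb and Bckdha, subunits of the branched-chain keto acid dehydrogenase, had −0.20, under an unadjusted p of 0.05, and −0.23, above it, and the glucose transporter Slc2a4 had −0.22, under it. Gpt2, a mitochondrial alanine aminotransferase, read 8.68, 8.08 and 7.50 in OVX + E2 and 8.29, 8.55 and 9.83 in OVX, with a difference of −0.80 (SE 0.44, limma adjusted p = 0.439). The arrays numbered 3 were again at opposite ends, and without both of them 0 of the 9 genes were lower. Around Ddit4, 9 of 12 genes of mTORC1 regulation were below 0, 3 were lower and 0 higher, with a median of −0.051, and 0 were lower and 1 higher after cyclic loess. The 3 lower as deposited were the mTORC1 brakes Tsc2 (−0.31) and Tbc1d7 (−0.15) and the mTORC1 subunit Akt1s1 (−0.27), and next came the stress-induced Sesn1 (−0.16). The 1 higher after cyclic loess was Tsc1 (0.12). When both arrays numbered 3 were left out, 1 of the 12 was lower (background 10.8%). It was none of the 3 but Sesn3 (−0.18), which was above 0 as deposited (0.039). Tsc1 and Sesn3 were named after their values were seen.

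Of 17 clock genes, 12 were below 0, 3 were lower and 0 higher, with a median of −0.076, and 1 was lower after cyclic loess and 1 without both arrays numbered 3. Besides Per1 they were the output factor Tef (−0.31) and the repressor Cry1 (−0.21), and next came its relative Cry2 (−0.27). Of 15 immediate-early genes, which respond quickly to many stimuli, 7 were below 0, 0 were lower and 0 higher, and 1 was higher after cyclic loess. With both arrays numbered 3 left out, 1 was lower and 1 higher. Nr4a1, an orphan nuclear receptor, read 9.40, 9.34 and 9.23 in OVX + E2 and 9.64, 9.38 and 10.89 in OVX (difference −0.65, limma adjusted p = 0.436). Jun, a subunit of the factor AP-1, read 9.34, 9.48 and 8.97 in OVX + E2 and 9.47, 9.38 and 10.11 in OVX (difference −0.39, limma adjusted p = 0.429). OVX replicate 3 was the highest array for both, as it was for Ddit4. The next 2 by p went the other way. Nr4a3, a relative of Nr4a1, had no overlap with OVX + E2 higher (difference 0.077, limma adjusted p = 0.449). It was 0.15 after cyclic loess, the 1 gene that was higher there. Egr3 had a difference of 0.089 (limma adjusted p = 0.558). Some genes, among them Per1, Cebpb, Fkbp4 and Sesn1, stand in 2 of these lists, so the counts are not independent of each other. Over all genes, 10006 of 18194 were below 0 with a median of −0.013, and 0.0045 after cyclic loess.

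Markers of other cell types were read in the same way. All 12 fast-fibre markers were below 0, 3 were lower and 0 higher, with a median of −0.40, and 0 were lower after cyclic loess. Of 10 slow-fibre markers 4 were below 0, and of 8 heart markers 1 was, with 0 lower and 0 higher in each. After cyclic loess 0 of the 10 slow-fibre markers were below 0, with a median of 0.14, and 1, the calcium pump Atp2a2 (0.19), named after its value was seen, was higher, while all 12 fast-fibre markers stayed below 0, with a median of −0.26. Of 6 fibroblast markers 6 were below 0 and 2 were lower, the matrix proteoglycan Dcn (−0.28) and the growth factor receptor Pdgfra (−0.13), with 0 lower after cyclic loess. Of 8 endothelial markers 7 were below 0, of 9 macrophage markers 7, of 6 fat markers 2 and of 3 red blood cell markers 0, with 0 lower and 0 higher in each. Without both arrays numbered 3, 4 of 9 macrophage, 4 of 6 fibroblast, 3 of 8 endothelial, 2 of 10 slow-fibre and 1 of 6 fat markers were lower (background 10.8%), and 0 fast-fibre, heart and red blood cell markers were. Adipoq, the fat cell hormone adiponectin, read 9.05, 8.77 and 8.01 in OVX + E2 and 9.83, 8.03 and 7.45 in OVX. It was lowest in OVX replicate 3, where Ddit4, Tsc22d3, Sgk1 and Cebpd were highest, as were Nr3c1, Klf9, Klf15 and Mt2. The part of these cell types in the members' values was not tested.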

How the data were processed

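Total RNA of 6 muscle samples was hybridized to 1 array each, and samples were grouped by the treatment in their labels. The deposited log2 values were made by the authors in R 2.14.2 (submitters' processing notes) by background correction, variance stabilization and normalization, and median polish over the probes of a set, which compress differences of dim probe sets. Scans and detection calls were not used. The platform annotation gave 34958 probe sets 1 symbol, 932 several and 9211 none, and 64 are controls. All 28 member Entrez identifiers were found in RefSeq's gene table, with 0 symbols changed.

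All 45101 probe sets were tested two-sided with limma 3.58.1 (lmFit, eBayes; R 4.3.3) without covariates, at the study's threshold of an unadjusted p of 0.001, an unadjusted p of 0.05 for counts, and Benjamini-Hochberg adjustment over all probe sets. Single probe sets were also put to an exact permutation test over samples. The fit was tested on simulated data with independent noise for each probe set and no effect of array or brightness. It cannot show how the p-values behave where such effects are present, as here. Arrays have no read depth, and their number limits the precision.

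Alternatives were quantile normalization, cyclic loess (3 iterations), median centring, keeping probe sets brighter than the median, an intensity trend, array weights, the replicate number as a block, and leaving out each array. The fits without both arrays numbered 3 and with the mean deviation of 12 fast-fibre markers as covariate were added after seeing the data. The members and the 16 lists were chosen with earlier results of these data known. Named genes are all member probe sets, up to 4 genes with the smallest p per list, the 5 genes most correlated with the member of widest range, and cell type markers. Some further genes of the lists were named after their values were seen, where the fits called different genes. A list's gene is its brightest probe set. No start window was used for Nr3c1 and Cebpd.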

Additional observations from a re-analysis of the deposited data

How the results depend on the processing

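The count of member probe sets lower at an unadjusted p under 0.05, 6 as deposited, was 3 after quantile normalization, 3 after cyclic loess, 2 when both arrays numbered 3 were left out and 0 with the fast-fibre covariate, and between 1 and 8 when each array was left out in turn. The lowest count came without OVX + E2 replicate 3, and it was 3 without OVX + E2 replicate 2 and 3 without OVX replicate 3. The count of member probe sets that were higher, 0 as deposited, was 1 with array weights and between 0 and 1 when each array was left out. The fit without both arrays numbered 3 and that with the covariate were chosen after seeing the data. The count of the 28 member probe sets below 0, 24 as deposited, was 17 after quantile normalization, 19 after cyclic loess, 15 without both arrays numbered 3 and 19 with the covariate. Among the brightest probe sets of the genes, these turned above 0. Quantile normalization gave 0.084 for Klf15, 0.035 for Mt1 and 0.036 for Mt2, and cyclic loess gave 0.065 for Klf15, 0.020 for Mt1 and 0.021 for Mt2. Leaving out both arrays numbered 3 gave 0.042 for Klf9 and 0.0084 for Mt2, and the covariate gave 0.033 for Mt2. Of 15 alternatives, the difference stayed below 0 and under an unadjusted p of 0.05 in 11 for Sgk1, 8 for Ddit4, 10 and 7 for the 2 probe sets of Tsc22d3, and 8 and 7 for those of Nr3c1, and it stayed below 0 in the rest. Keeping brighter probe sets, the intensity trend and the replicate block cannot change a difference, only its p. Median centring moves all differences by the same amount. In these settings the sign was therefore not put to a test. Over all probe sets, 96 passed at 0.001, 92.7% of them lower. The count was 31 after quantile normalization (29.0% lower), 31 after cyclic loess (45.2% lower), 164 after median centring (98.8% lower), 30 among brighter probe sets, 39 with an intensity trend (53.9% lower), 37 without both arrays numbered 3, 6 with the covariate, and between 19 and 76 when each array was left out. At p under 0.05, 6216 passed, against 3510 after quantile normalization, 3424 after cyclic loess, 3546 among brighter probe sets, 2605 with the covariate, and between 3607 and 6191 when each array was left out. The main fit did not treat same-numbered arrays as pairs. Deviations of same-numbered arrays from their group means correlated at −0.13, −0.20 and −0.34. Such deviations sum to 0 in each group, and the arrays numbered 3 lay at opposite ends of the fast-fibre markers. These correlations therefore cannot settle whether the replicate numbers pair the samples. With the replicate number as a block, 21 probe sets passed at 0.001, 4632 passed at 0.05, and 5 member probe sets were lower. The causes of these shifts were not tested.

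With 3 arrays a group the exact permutation test cannot go below 0.10. The 6 member probe sets with a mean under the median level of all probe sets carry little signal, and the deposited scale compresses their differences.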

Other observations

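The genes whose levels over the 6 arrays were most like those of Ddit4, the member with the widest range among the brightest probe sets, were Ppp1r3d, Ociad1, Rexo1, Adora3 and Prr13. Their Pearson's r with Ddit4 lay between 0.990 and 0.993, the highest among 18193 other genes. These are the top of many comparisons over 6 arrays that share the groups, and are given as a description. Their values spanned a narrower range than those of Ddit4. Ppp1r3d, a glycogen-targeting subunit of protein phosphatase 1, read 7.29, 7.20 and 7.24 in OVX + E2 and 7.26, 7.43 and 7.47 in OVX. Ociad1 read 10.01, 9.91 and 9.98 in OVX + E2 and 9.98, 10.08 and 10.14 in OVX. OVX replicates 2 and 3 were the highest arrays for both, and OVX replicate 1 lay among the OVX + E2 arrays, as for Ddit4.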
